A study of Mus musculus with 2 samples.

Results

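Sebaceous gland cells of the newborn epidermis were described in 162 cells, 70 from KO mouse 1 and 92 from KO mouse 2, out of 19488 cells that passed the quality filter (0.831%). The cells were chosen by their own transcripts: at least 10 UMIs (unique molecular identifiers, each 1 counted transcript) of Scd1, and at least 1 UMI of 2 or more of Cidea, Pparg, Mc5r, Elovl3, Soat1 and Far2. These 7 genes are therefore described here and carry no test. The study asks what the M3 muscarinic acetylcholine receptor does in epidermal differentiation. Its single-cell RNA libraries used here come from the epidermis of 2 Chrm3 knockout (KO) mice, in which the gene of that receptor is knocked out, both male, of the C57BL/6J strain and at postnatal day 0. Both mice carry the knockout, each gave 1 library, and the labels do not say in which part of the gene the deletion lies. With wild-type skin not analysed here, all levels are those of Chrm3 KO epidermis, and an effect of the genotype was not tested. The authors counted 109756784 UMIs in 10816 barcodes of KO mouse 1 and 166441732 UMIs in 15867 barcodes of KO mouse 2. Of these barcodes, 7607 and 11881 had 900 to 7700 genes and less than 10% of UMIs from mitochondrial genes, and are called kept cells.

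The sebaceous gland sits beside the upper hair follicle. Its cells start as flat, dividing cells at the rim, move inward while they fill with lipid, and at last burst, so that the whole cell becomes sebum. Sebum is rich in wax esters, triglycerides and cholesterol esters, and the gland is known as a target of steroid hormones and of PPARγ, the nuclear receptor encoded by Pparg.

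No UMI of Chrm3 was counted in the 162 cells. At the depth of these cells a count of 0 allows up to 1.48 CPM (UMIs per 1000000 UMIs) in KO mouse 1 and 1.19 CPM in KO mouse 2, taking 3 counts as the limit. Over all kept cells, 13 and 19 UMIs of Chrm3 were counted (0.137 and 0.128 CPM), far below those limits, so the gland cells cannot be told apart from the rest at this depth. Chrm3 lies on chromosome 13 of mm10 from 9875486 to 10360847. A UMI does not show whether a transcript came from the deleted stretch, so these counts do not check the label.

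In KO mouse 1 the sebaceous cells made up 0.920% of the kept cells, with an exact 95% binomial interval from 0.718 to 1.16. In KO mouse 2 they made up 0.774%, with an interval from 0.625 to 0.949. The mean was 0.847% ± 0.103 (SD, n = 2 mice). The intervals overlap, and they cover counting error only. The cells were deeper than most, with a median of 22178.5 and 23460 UMIs against 10480 and 10577 over all kept cells. A minimum of 10 Scd1 UMIs is a raw count, which a deeper cell reaches more easily. Among the chosen cells, Spearman's rho between Scd1 UMIs and depth was 0.57. The part of the rule in the depth difference was not tested. They held 4191 and 4336 genes at the median, and 5.496% and 5.248% mitochondrial UMIs. Both libraries share 127 barcodes, 34 of them in kept cells and none in a sebaceous cell. Scrublet, a doublet caller, marked 2 and 4 of the sebaceous cells.

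Scd1, the stearoyl-CoA desaturase that makes monounsaturated fatty acids, spanned a wide range among the chosen cells. Its UMIs per cell ran from 10 to 799 with a median of 46.5 in KO mouse 1, and from 10 to 590 with a median of 29 in KO mouse 2. In all, 48 cells held 10 to 19 UMIs, 73 held 20 to 99, and 41 held 100 or more. Exactly 10 UMIs were counted in 7 members, and 3 cells with 9 UMIs and at least 2 of the other genes fell just outside. Of 163 kept cells with 10 or more Scd1 UMIs, 162 also had at least 2 of the other 6 genes. Most members had far more than the minimum, with 86 cells holding 5 of the 6 genes and 31 holding all 6. Another 39 cells held 5 to 9 Scd1 UMIs with at least 2 of the other genes, and are not members. The 17 members with 10 to 12 Scd1 UMIs had a median of 25.1 Mgst1, 40.5 Fabp5 and 1.70 Elovl6 UMIs per 10000, at a median depth of 17005 UMIs. The 19 cells just outside, with 7 to 9, had 23.1, 23.4 and 3.69, at a depth of 10844 UMIs, so that Elovl6 was higher outside the limit than inside it.

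**Figure D1:**
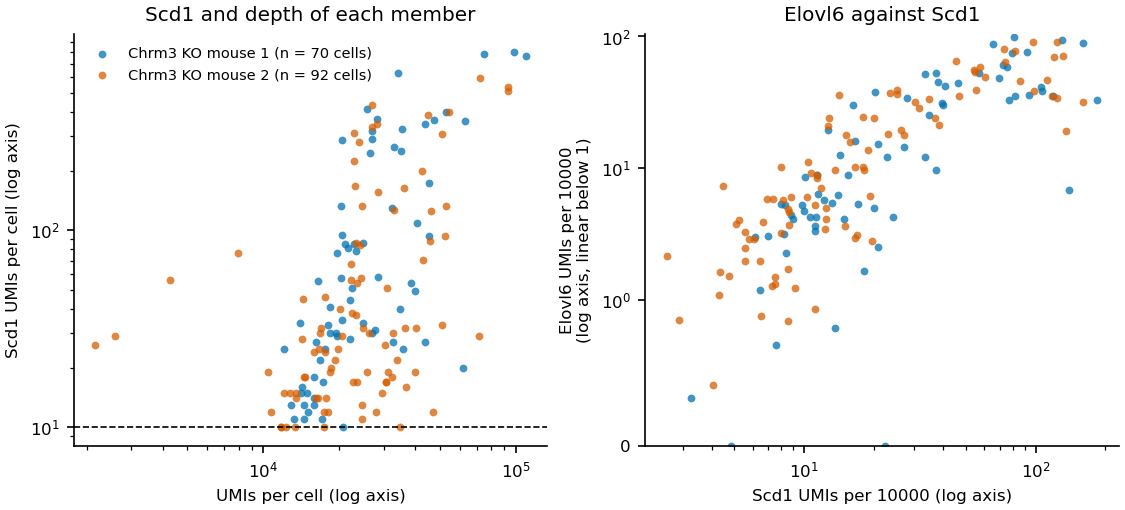
Scd1 UMIs against all UMIs (left, log axes, dashed line at the minimum of 10) and Elovl6 against Scd1, both as UMIs per 10000 (right, log axes, linear below 1), 1 point per sebaceous cell, coloured by KO mouse. Scd1 runs from 10 to 799 UMIs, 3 cells of KO mouse 2 hold under 5000 UMIs in all, and Elovl6 is higher where Scd1 is higher in both mice.

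In UMI sums over the sebaceous cells of each mouse (2024345 and 2529326 UMIs), Scd1 stood at 4734 and 3154 CPM in KO mouse 1 and KO mouse 2, against 14.2 and 12.8 CPM in all other kept cells. UMIs were counted at the 3′ end, so levels of different genes need no scaling by length. Cidea, a lipid droplet protein that promotes droplet fusion, stood at 2626 and 1826 CPM. Elovl3, an elongase of long fatty acids, reached 1095 and 822 CPM, and Far2, the reductase that makes fatty alcohols for wax esters, 1030.5 and 852 CPM. Soat1, which esterifies cholesterol, was nearly equal in the mice at 855 and 859 CPM. The receptor genes were far scarcer, with Pparg at 125 and 94.5 CPM and Mc5r, the melanocortin receptor that drives sebum output, at 15.8 CPM in both. Scd1 lies on chromosome 19 of mm10 from 44394455 to 44407879, Elovl3 on chromosome 19 from 46131897 to 46135694 and Soat1 on chromosome 1 from 156424525 to 156474331.

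Cidea was detected in every sebaceous cell, and Pparg in 61 of 70 (87.1%) and 76 of 92 (82.6%). Melanocytes, which should lack these genes, had a Cidea UMI in 1.79% and 1.56% of cells and a Pparg UMI in 0.255% and 0.156%, at median depths of 9716 and 10465.5 UMIs. Mc5r was found in 21.4% and 22.8% of the sebaceous cells.

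The label was checked against 6 other known markers of the gland, which took no part in the choice: Mgst1, Scd3, Awat2, Plin2, Fasn and Elovl6. Levels were compared with those of 2 neighbouring classes, each chosen by its own keratins and with under 10 Scd1 UMIs. Upper follicle keratinocytes (at least 5 UMIs each of Krt79 and Krt17) numbered 549 and 628, and basal keratinocytes (at least 50 UMIs of Krt14 and 20 of Krt5, little Krt10, and no UMI of Krt79, Sox9, Lhx2, Shh, Mki67 or Top2a) numbered 708 and 862. UMI sums per mouse of these classes and of melanocytes, 8 sums in all, entered 1 edgeR quasi-likelihood fit with Benjamini-Hochberg adjustment, from which every gene used to choose a class was left out of the calls. All 6 markers were higher in sebaceous cells than in either class. Scd3 was near 0 in the other classes and entered the fit through the sebaceous sums alone. Its call was thus fixed beforehand and does not bear on the label. Awat2 was near 0 in basal keratinocytes, and its call against that class likewise does not bear on the label. By comparison, 22% of the 12465 genes tested were called higher and 21.7% lower than in upper follicle keratinocytes at an adjusted p under 0.05, and 23.7% were called higher and 24.9% lower than in basal keratinocytes. The choice by Scd1 and the bar on Scd1 in the other classes bear on every gene that varies with Scd1 from cell to cell, so counts over lipid genes describe the chosen cells and are not independent of the choice.

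A change of 3 or more on the log2 scale was reached by 296 genes higher and 220 lower than in upper follicle keratinocytes, and by 536 higher and 405 lower than in basal keratinocytes. When every cell was first thinned to 5000 UMIs, the calls fell from 5448 to 2808 against upper follicle keratinocytes and from 6055 to 3606 against basal keratinocytes. Of the 205 pathway genes tested, 126 were called higher and 43 lower than in upper follicle keratinocytes. After thinning 195 of them were tested, of which 104 were called higher and 31 lower, where 12.9% of all 11054 genes tested were called higher and 12.5% lower. Against basal keratinocytes 139 of the 205 were called higher and 29 lower. The median log2 fold change over the 205 was 1.35 against upper follicle and 1.91 against basal keratinocytes, beside medians of -0.08 and -0.06 over all genes tested. By list, the genes called higher than in basal keratinocytes were 9 of 12 for fatty acid synthesis, 9 of 10 for elongation, 7 of 8 for activation, 5 of 10 for uptake, 9 of 12 for neutral lipid synthesis and 6 of 8 for droplets. In each of the last 3 lists 2 genes were lower, and in the first 3 none was. Genes with no or almost no UMI in basal keratinocytes, such as Plin4, Plin5, Cd36, Scd3, Acacb and Awat1, count as higher by their presence in the gland cells alone.

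**Figure D2:**
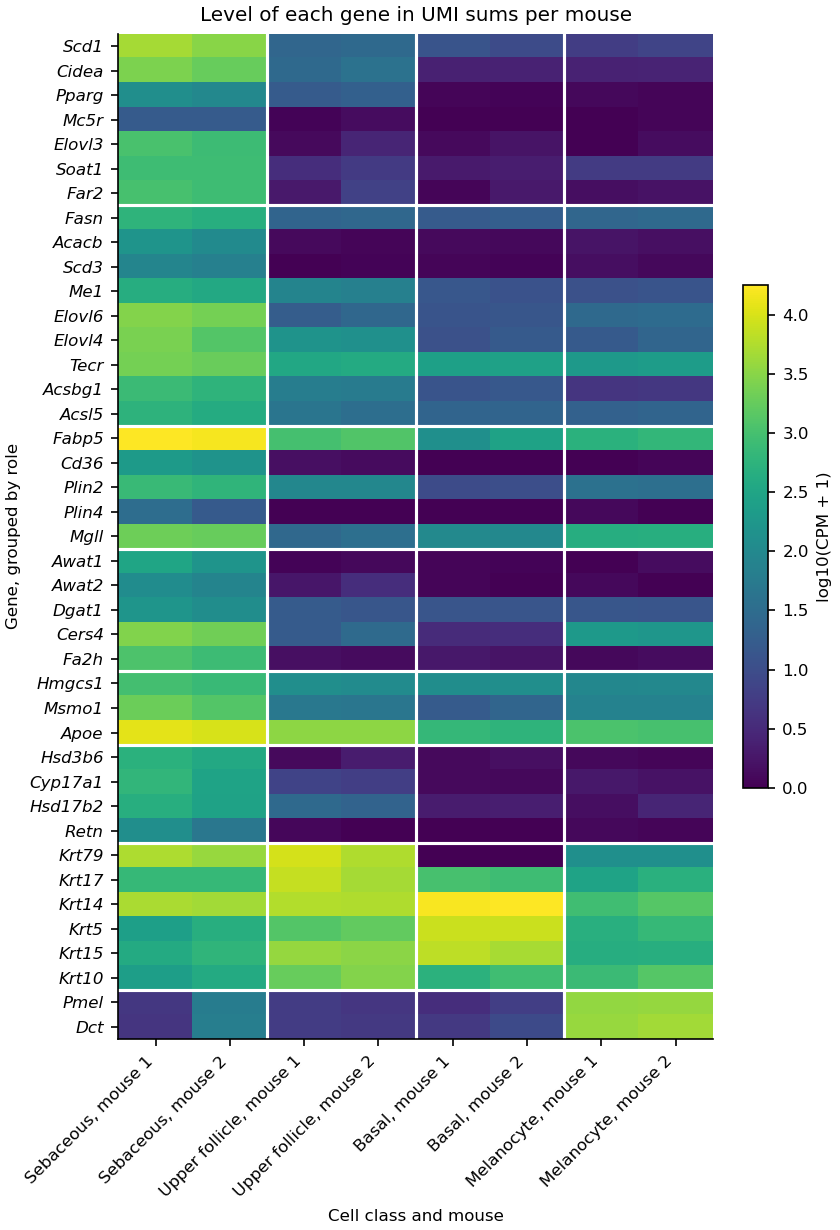
Level of each gene, as log10(CPM + 1), in the UMI sum of each class and KO mouse, with genes grouped by role and white lines between groups and classes. The lipid, sterol and hormone genes are brightest in the sebaceous columns of both mice, and Krt14 is shared with both keratinocyte classes. Krt79 is shared with upper follicle keratinocytes, which were chosen by it, while basal keratinocytes were chosen without it. Pmel and Dct are brighter in the sebaceous sum of KO mouse 2 than of KO mouse 1.

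Most genes of fatty acid synthesis were higher in the sebaceous cells. Of 12 genes tested in this list, 8 were higher and 2 lower than in upper follicle keratinocytes (median log2 fold change 2.80). The 8 include Scd3 and Acacb, which were near 0 in both keratinocyte classes. Calls of these genes only restate that their UMIs were counted in the gland cells, and both enter the median. Fasn, the fatty acid synthase, stood at 583 and 467 CPM against 22.17 and 25.04 in upper follicle and 15.5 and 17.5 in basal keratinocytes, with no overlap (log2 fold change against upper follicle 4.73 ± 0.16 SE, adjusted p = 3.34e-08). Slc25a1, which carries citrate out of the mitochondrion, rose from 34.5 and 40.8 to 518 and 434 CPM. Acacb, an acetyl-CoA carboxylase, stood at 159.6 and 106 CPM against at most 0.296 in upper follicle and 0.287 in basal keratinocytes. Me1, malic enzyme and a source of NADPH, was 441 and 361 CPM, against 82.6 and 70.3 in upper follicle keratinocytes (2.65 ± 0.14, adjusted p = 3.35e-07).

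The desaturases that neighbour Scd1 on chromosome 19 differed from one another. Scd3, from 44203269 to 44244016, stood at 86.0 and 71.2 CPM and was near 0 elsewhere (0 and 0.0797 CPM in upper follicle keratinocytes). Scd2, from 44293674 to 44306864, was lower in sebaceous cells, at 7.90 and 12.7 CPM against 29.5 and 27.3 in upper follicle keratinocytes (-1.18 ± 0.21, adjusted p = 0.00116). After thinning to 5000 UMIs the Scd2 call was lost (-0.56, adjusted p = 0.352, the highest over the alternatives, with 5.05e-07 the lowest). Scd4, the remaining gene of the cluster, had no UMI in the sebaceous cells. The Scd genes are close copies, so reads that map to more than 1 of them could be lost from each. Fads3, a gene of the fatty acid desaturase family, was also lower than in upper follicle keratinocytes, at 0 and 0.395 CPM against 6.40 and 5.74 (-4.44 ± 0.91, adjusted p = 0.00279). After thinning the fold was not smaller (-6.45) but missed the threshold (adjusted p = 0.0812, the highest over the alternatives, with 6.56e-08 the lowest).

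Fatty acid elongation had 9 of 10 genes higher and none lower than in upper follicle keratinocytes, with a median log2 fold change of 3.17, beside 3.15 for cholesterol synthesis. Against basal keratinocytes its median was 3.36, below those of fatty acid synthesis (4.51), activation (4.51) and cholesterol synthesis (3.73). The droplet list was also above it at 3.83, but below it at 2.93 with genes absent from a group set at their bound. Elovl6, which extends C16 chains, led the list at 2895 and 2292 CPM against 17.1 and 25.5 (7.17 ± 0.23, adjusted p = 3.18e-08). Tecr and Hsd17b12, which complete each elongation cycle, stood at 2293 and 1914 CPM and at 1381 and 1114 CPM. Elovl4, the elongase of very long chains, stood at 2533 and 1309 CPM, and both values lay far above the 155 and 137 CPM of upper follicle keratinocytes. Elovl7, at 109.7 and 60.9 CPM, did not pass (0.14 ± 0.27, adjusted p = 0.704).

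The list of fatty acid activation holds acyl-CoA synthetases and also thioesterases, which reverse the step, and 6 of its 8 genes were higher and 1 lower. Of the synthetases, Acsl1, Acsl4, Acsl5 and Acsbg1 were higher and Acsl3 was lower, and the other 2 higher genes were the thioesterases Acot1 and Acot7. Acsbg1 and Acsl5, both acyl-CoA synthetases, stood at 784 and 594 CPM and at 572 and 416 CPM, against 62.3 and 57.5 and against 44.0 and 32.9 in upper follicle keratinocytes. Acot1, an acyl-CoA thioesterase, hardly set the gland cells apart from the upper follicle (496 and 391 against 391 and 269.7 CPM, 0.68 ± 0.17, adjusted p = 0.00897), and this call was lost after thinning (0.34, adjusted p = 0.16, the highest over the alternatives, with 2.65e-06 the lowest). It was much higher than in basal keratinocytes (19.2 and 17.5 CPM, 4.58 ± 0.21).

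Fabp5, a fatty acid binding protein, was the most abundant gene of the uptake list, at 17756 and 15581 CPM, against 1007 and 1261 CPM in upper follicle and 129.7 and 281 CPM in basal keratinocytes (4.13 ± 0.32 against upper follicle, adjusted p = 5.04e-06). The list as a whole was mixed, with 5 of 10 genes higher and 2 lower. Slc27a4, a fatty acid transporter, rose from 9.36 and 11.6 to 473 and 372 CPM. Cd36, a scavenger receptor that takes up fatty acids, stood at 205 and 151 CPM and had no UMI in basal keratinocytes of either mouse. Dbi, which binds acyl-CoA, went the other way, at 46.9 and 88.6 CPM against 272 and 333 in upper follicle keratinocytes (-1.89 ± 0.24, adjusted p = 0.000139).

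Genes that make the neutral lipids of sebum were higher in 10 of 12 cases and lower in 2. Awat1 and Awat2, wax alcohol acyltransferases, stood at 313 and 157 CPM and at 117 and 82.2 CPM, and Awat1 did not exceed 0.239 CPM in upper follicle or basal keratinocytes. The call of Awat1, counted among the 10, thus only restates that its UMIs were counted in the gland cells. Dgat1 and Dgat2, the last enzymes of triglyceride synthesis, were both higher than in upper follicle keratinocytes (3.59 ± 0.18 and 2.21 ± 0.22). The 2 lower genes were Far1, the ubiquitous partner of Far2 (-0.92 ± 0.15, adjusted p = 0.000782), and Lpin2, a phosphatidate phosphatase (-1.15 ± 0.23, adjusted p = 0.00232). Far2 was among the genes that chose the cells, and Far1 was not.

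Among droplet genes, 6 of 8 were higher and none lower than in upper follicle keratinocytes. The 6 include Plin4 and Plin5, which had no UMI in upper follicle or basal keratinocytes. Calls of these 2 genes only restate that their UMIs were counted in the gland cells. Plin2, the coat protein of small droplets, stood at 754 and 598 CPM against 90.6 and 93.2 in upper follicle keratinocytes (3.13 ± 0.14, adjusted p = 1.14e-07). Plin4 was counted at 32.11 and 15.02 CPM and had no UMI in upper follicle or basal keratinocytes. Plin1, the coat of large fat-cell droplets, was nearly absent, at 0.494 and 0.791 CPM. In the breakdown list, Mgll, monoglyceride lipase, was the most abundant gene at 2030.3 and 1812 CPM against 25.9 and 34.4 in upper follicle keratinocytes (6.24 ± 0.17, adjusted p = 1.92e-08). Pnpla2, which starts triglyceride breakdown, and its activator Abhd5 were also higher, while Lipa, Lipm and Pla2g2f were lower (3 of 6 genes each way).

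Cholesterol synthesis moved nearly as 1 list. Of 20 genes, all tested, 19 were higher than in upper follicle keratinocytes and 1, Sc5d, was lower, and the same 19 to 1 split was found against basal keratinocytes (median log2 fold changes 3.15 and 3.73). Msmo1, a sterol methyl oxidase, stood at 1955 and 1298 CPM against 49.3 and 46.2 CPM in upper follicle keratinocytes (5.35 ± 0.24, adjusted p = 1.2e-07). Hmgcs1, an early enzyme of the pathway, stood at 978 and 771 CPM against 125 and 112 in upper follicle keratinocytes (3.14 ± 0.14, adjusted p = 1.13e-07). Sc5d, which desaturates the sterol ring late in the pathway, was at 4.45 and 9.88 CPM (-1.46 ± 0.29 against upper follicle keratinocytes, adjusted p = 0.00228).

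Because these genes moved together, their promoters were searched in RefSeq windows of 300 bases (build GRCm38.p6, 250 bases before to 50 after the start). The CCAAT box, bound by the factor NF-Y, was searched as CCAAT on both strands (ATTGG on the other strand). Of the 20 genes, 15 had a window, and 14 of these held the box, against 41.1% of all 27025 genes with a window. Fdps, Fdft1 and Sqle were among those with no entry. A sterol response motif written as TCACNCCAC, also on both strands, was in 1 of the 15 (Hmgcs1) and in 1.44% of all genes, and the E-box CACGTG was in 3 of the 15 and in 8.09%. For fatty acid synthesis 8 of 13 genes with a window held the CCAAT box, and for elongation 6 of 12. A match is only a description of the letters in the window. The sequences are given 5′ to 3′ on the strand of the gene, with matches to CCAAT (or ATTGG) and TCACNCCAC in capitals. They are the windows of Hmgcs1 (chr13:119690101-119690400, plus strand), Msmo1 (chr8:64733529-64733828, minus strand) and Fasn (chr11:120824498-120824797, minus strand), chosen as an early and a late sterol gene and the fatty acid synthase.
Hmgcs1: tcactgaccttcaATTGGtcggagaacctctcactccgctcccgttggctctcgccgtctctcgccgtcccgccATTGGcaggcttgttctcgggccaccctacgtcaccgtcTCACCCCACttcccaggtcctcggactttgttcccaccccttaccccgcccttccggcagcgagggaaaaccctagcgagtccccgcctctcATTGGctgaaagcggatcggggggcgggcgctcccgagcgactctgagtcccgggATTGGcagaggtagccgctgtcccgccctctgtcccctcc
Msmo1: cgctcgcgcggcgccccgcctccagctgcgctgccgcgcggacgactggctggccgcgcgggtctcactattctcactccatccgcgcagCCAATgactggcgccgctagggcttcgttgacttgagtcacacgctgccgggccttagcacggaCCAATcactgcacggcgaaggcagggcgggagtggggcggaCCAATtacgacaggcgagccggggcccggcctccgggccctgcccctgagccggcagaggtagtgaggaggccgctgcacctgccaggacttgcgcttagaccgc
Fasn: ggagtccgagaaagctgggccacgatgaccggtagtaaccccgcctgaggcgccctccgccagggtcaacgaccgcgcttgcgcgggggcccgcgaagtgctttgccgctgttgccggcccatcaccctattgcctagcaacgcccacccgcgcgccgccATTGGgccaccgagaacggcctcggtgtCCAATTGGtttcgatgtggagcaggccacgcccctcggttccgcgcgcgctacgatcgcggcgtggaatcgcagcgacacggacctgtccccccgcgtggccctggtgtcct
Hmgcs1 held 4 matches to the CCAAT box and 1 to the sterol motif, and Msmo1 and Fasn held 3 matches to the CCAAT box each, of which 2 overlap in Fasn, 1 on either strand.

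Sterol sensing and uptake showed smaller differences, with 8 of 12 genes higher and 1 lower (median 1.26). Srebf2, the sterol-sensing transcription factor, stood at 99.8 and 104 CPM against 60.7 and 54.5 in upper follicle keratinocytes (1.08 ± 0.11, adjusted p = 3.77e-05), and Srebf1, which drives fatty acid genes, was higher by 2.41 ± 0.22. Apoe, a lipid carrier protein, stood at 12115 and 9958 CPM against 3342 and 3446 in upper follicle keratinocytes (1.96 ± 0.12, adjusted p = 9.9e-07). Npc2, which moves cholesterol out of lysosomes, was lower, at 135 and 140.4 CPM against 213 and 196 (-0.31 ± 0.10, adjusted p = 0.0231).

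**Figure D3:**
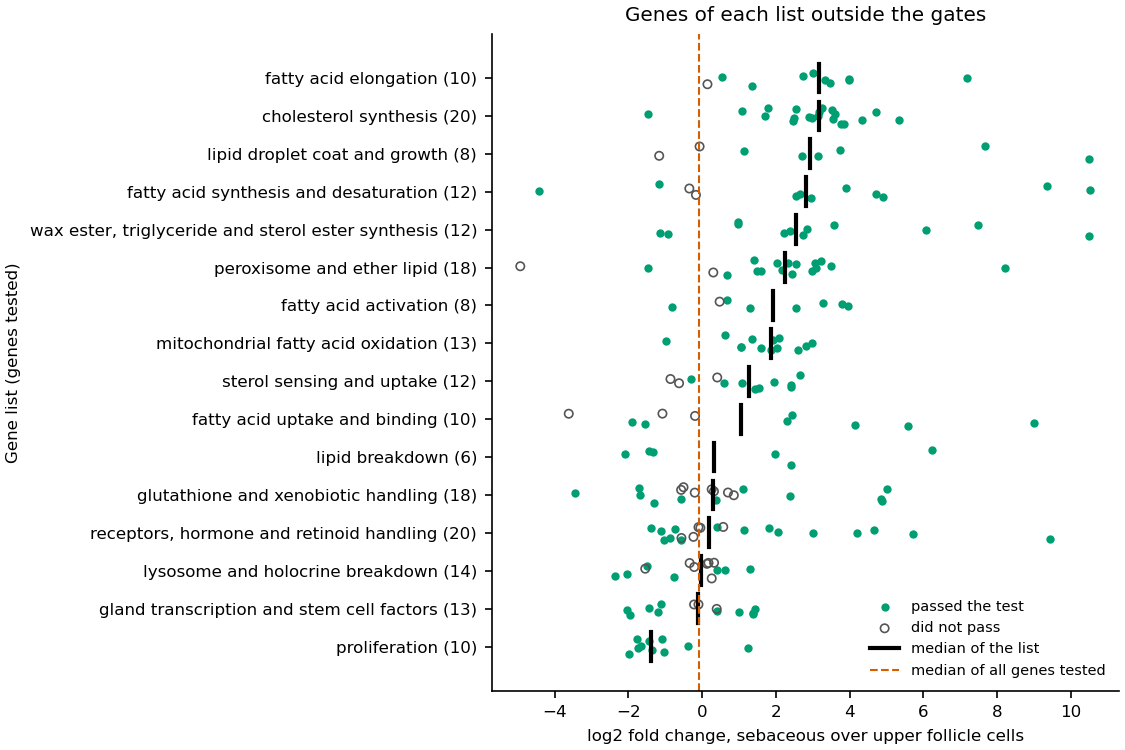
Log2 fold change of sebaceous over upper follicle cells for each gene outside the gates (1 point a gene, filled where it passed the test), by gene list, with the list's median as a black bar and the median of all genes tested (-0.08) as a dashed line. Among the pathway lists with more than 1 gene, fatty acid elongation (3.17) and cholesterol synthesis (3.15) have the highest medians and proliferation (-1.40) the lowest. Points near 10 belong to genes with almost no UMI in upper follicle cells, whose fitted value depends on the small count added by the fit.

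Peroxisomal and mitochondrial genes were higher as well. In the peroxisome and ether lipid list 15 of 18 genes were higher and 1 lower (median 2.25, or 2.33 with genes absent from a group set at their bound), and in mitochondrial fatty acid oxidation 12 of 13 were higher and 1 lower (median 1.86). Crat, carnitine acetyltransferase, rose from 1.38 and 1.91 to 483 and 366 CPM (8.22 ± 0.22, adjusted p = 1.92e-08). Pex3 and Pex19, which place proteins in the peroxisomal membrane, stood at 495 and 405 CPM and at 368 and 294 CPM. Acadl, a long-chain acyl-CoA dehydrogenase, stood at 736 and 625 CPM against 103 and 102 in upper follicle keratinocytes. The lower member of each list was Agps, an ether lipid enzyme (-1.46 ± 0.32, adjusted p = 0.00442), and Cpt1a, which admits fatty acids to the mitochondrion (-0.98 ± 0.22, adjusted p = 0.00441).

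The 12 genes with the largest ratio of their level in the gland cells to that in all other kept cells included Fa2h and Cers4, which shape ceramides and related lipids. Fa2h, the fatty acid 2-hydroxylase, stood at 1153 and 828 CPM against 0.451 and 0.540 in all other cells. Cers4, a ceramide synthase, stood at 2794 and 2174 CPM, against 15.5 and 28.9 in upper follicle keratinocytes (7.05 ± 0.30, adjusted p = 8.51e-08), and melanocytes also held it at 201 and 169.7 CPM. Other genes of this group were Cyp2g1 (2711 and 1583 CPM), a cytochrome P450, Serpina3b (769.6 and 667 CPM), a protease inhibitor, Mgst1, Hsd3b6, Dhrs7, Nudt17, and Elovl6, Crat and Msmo1 described above. Serpina3b and Hsd3b6 belong to families of close copies, so how reads were shared among copies is uncertain. Mgst1, a microsomal glutathione transferase, was the most abundant of these at 5049 and 3958 CPM, against 148 and 185 in upper follicle and 14.2 and 12.6 in basal keratinocytes (5.01 ± 0.18 against upper follicle, adjusted p = 3.34e-08). The rest of its list did not follow it, with 6 of 18 glutathione and xenobiotic genes higher and 5 lower, Gpx1, a glutathione peroxidase, among the lower (-0.56 ± 0.14, adjusted p = 0.00847).

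Hormone genes were split. Of 20 genes for receptors, hormone and retinoid handling, 9 were higher and 6 lower than in upper follicle keratinocytes. Thrb, a thyroid hormone receptor, and Ppara, a nuclear receptor for fatty acids, stood at 35.1 and 34.0 CPM and at 33.6 and 22.5 CPM, with at most 1.91 and 1.99 CPM in upper follicle keratinocytes (4.65 ± 0.34 and 4.19 ± 0.31). Hsd3b6, a 3β-hydroxysteroid dehydrogenase, stood at 516 and 364 CPM, and Srd5a1, which makes dihydrotestosterone, at 81.5 and 78.7 CPM against 25.4 and 29.0. Fgfr2, Igf1r, Ghr, Rara, Thra and Ppard were lower, with log2 fold changes from -1.40 to -0.57.

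Cyp17a1 and Hsd17b2, further steroid enzymes, were picked after their values had been seen. Cyp17a1, which makes androgen precursors, stood at 619 and 291 CPM against 6.21 and 5.10 in upper follicle keratinocytes (6.59 ± 0.36, adjusted p = 4.7e-07). Hsd17b2, which inactivates androgens and oestrogens, stood at 459 and 286 CPM against 28.0 and 21.4 (4.17 ± 0.25, adjusted p = 8.27e-07). Both were higher in KO mouse 1 than in KO mouse 2, as were Scd1 and Elovl4.

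Of the transcription and stem cell factors, 5 of 13 were higher and 5 lower. Cebpb and Cebpa, factors of fat cell and gland differentiation, stood at 1162 and 789 CPM and at 830.4 and 519 CPM, against 483 and 421 and against 359 and 258 in upper follicle keratinocytes (1.37 ± 0.21 and 1.39 ± 0.23). Lrig1 and Lgr6, markers of stem cells of the upper follicle, were lower (-1.12 ± 0.18 and -1.21 ± 0.29), as were Klf4, Klf5 and Gata6. Gata3 was called higher (0.41 ± 0.15, adjusted p = 0.0433). Its level in KO mouse 2 was 170.4 against 171 CPM before TMM scaling, and with the TMM factors of the fit the log2 difference was 0.20 in KO mouse 2 and 0.57 in KO mouse 1. The fold of Gata3 was as large but missed the threshold with DESeq2 size factors in edgeR (0.42, adjusted p = 0.0505), with DESeq2 (0.42, adjusted p = 0.0637) and without called doublets (0.42, adjusted p = 0.089). After thinning it was smaller (0.21, adjusted p = 0.421), and 0.0124 was the lowest adjusted p over the alternatives. Lysosomal genes showed no common direction, with 3 of 14 higher and 4 lower. Among them, Ctsl and Ctsh, cathepsin proteases, were lower (-2.05 ± 0.21 and -2.37 ± 0.21).

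Among cholinergic genes, the acetylcholine receptor Chrm2 was the only muscarinic receptor with a UMI in these cells. It was counted 6 times in each mouse, in 5 and 6 cells, or 2.96 CPM in KO mouse 1, with an exact 95% Poisson interval from 1.09 to 6.45, and 2.37 CPM in KO mouse 2, from 0.871 to 5.16. All other kept cells held 0.0967 CPM (0.0442 to 0.184) and 0.103 CPM (0.0574 to 0.169). The intervals do not overlap in either mouse, but rest on 12 UMIs and cover counting error only, and Chrm2 was too scarce for the fit. Of the 16 cholinergic genes found in the files, 11 had no UMI in the sebaceous cells, and the enzyme Ache was the only 1 tested, at 1.48 and 2.77 CPM against 0.197 and 0.319 in upper follicle keratinocytes (3.21 ± 0.69, adjusted p = 0.00396). The level of Ache in KO mouse 1 equals the limit of 3 counts, so this fold rests on very few UMIs.

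Keratins were abundant beside the lipid genes. Krt14 stood at 5154 and 4599 CPM, close to the 5788 and 5541 CPM of upper follicle keratinocytes, and Krt79, a keratin of the upper follicle and gland duct, at 5358 and 4032 CPM. Both keratins chose the comparison classes, so neither was tested. Krt15, a keratin of basal and stem cells, was lower than in upper follicle keratinocytes (397 and 616 against 3858 and 3242 CPM, -2.56 ± 0.19, adjusted p = 4.31e-06). All 6 basal markers tested were lower than in both classes, with Trp63 and Col17a1, a master factor and a hemidesmosome protein of basal cells, at -1.26 ± 0.14 and -1.12 ± 0.19 against upper follicle keratinocytes. Of 6 upper follicle markers tested, 5 were lower and Cst6, a cystatin, was called higher (1.38 ± 0.47, adjusted p = 0.0366). The log2 difference of Cst6 was 0.81 in KO mouse 1 and 2.24 in KO mouse 2. With DESeq2 its fold was the same but missed the threshold (1.38, adjusted p = 0.158), and after thinning the fold was smaller (0.80, adjusted p = 0.0904), with 3.14e-25 the lowest adjusted p over the alternatives.

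Spinous markers parted. Sbsn and Ly6g6c were higher, at 1858 and 1177 CPM and at 1087 and 597 CPM against 409 and 370.3 and against 282 and 236 in upper follicle keratinocytes (2.22 ± 0.35 and 1.96 ± 0.40). Krt1, the keratin of the spinous layer, was lower, at 134 and 244 CPM against 2056 and 3045 (-3.50 ± 0.55, adjusted p = 0.000556). Granular markers were scarce (34.1 and 38.7 CPM summed over 6 genes, Lor the most abundant), and 1 of 6 was called lower and none higher.

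Markers of other cells were mostly at or near 0. Fat cells share Pparg, Cidea and Scd1 with the gland, but Adipoq, Cfd, Lep, Car3, Ucp1, Cox8b and Adrb3 had no UMI in the sebaceous cells. The summed adipocyte list stood at 126.5 and 49.0 CPM, nearly all of it Retn, resistin, at 125 and 47.0 CPM. Retn was found in 32.9% and 19.6% of the sebaceous cells and in 0.255% and 0.156% of melanocytes. The summed lists reached 1.48 and 3.56 CPM for Langerhans cells, 1.48 and 0 for T cells, 0.494 and 0.395 for Merkel cells, 10.4 and 31.6 for dermal fibroblasts (Postn the most abundant, with Col3a1, Lum, Pdgfra and Twist2 at 0), 0 and 0.791 for endothelial cells, 0.988 and 0 for erythroid cells, and 5.928 and 15.02 for inner root sheath and hair shaft. The keratinocyte lists were far higher, at 5921 and 5838 CPM for the basal, 6914 and 5673 for the upper follicle and 6029 and 5105 for the spinous list, with Krt14, Krt79 and Dmkn the most abundant. In all other kept cells the Langerhans cell list stood at 400.6 and 317 CPM.

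**Figure D4:**
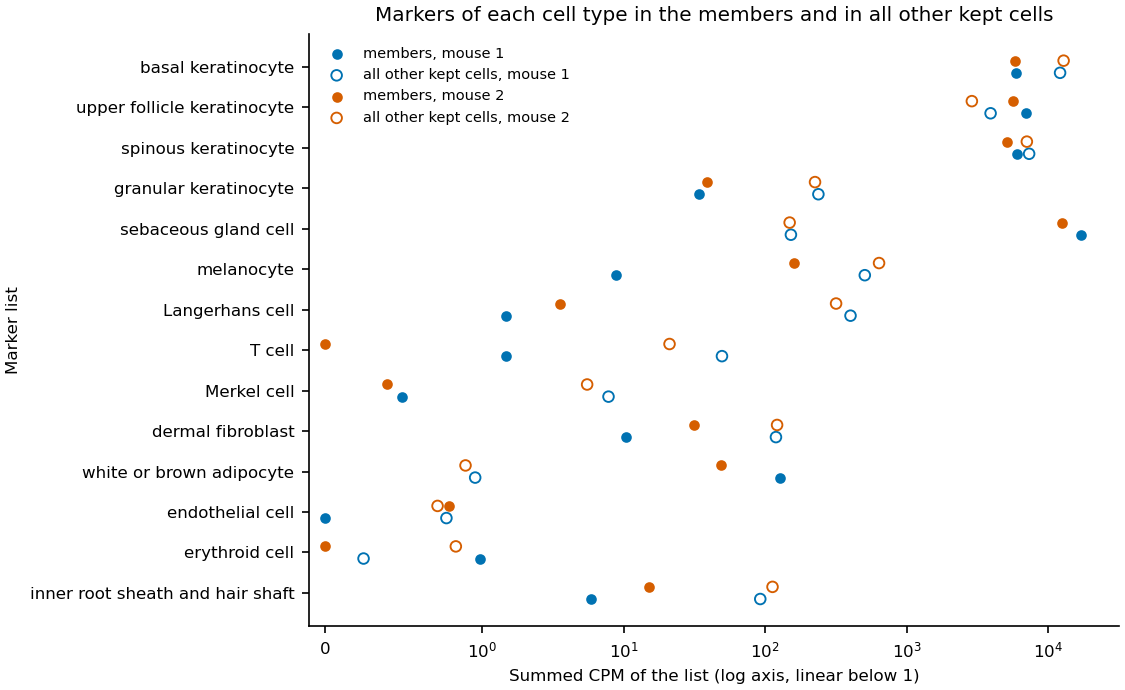
Summed CPM of each marker list (log axis, linear below 1) in the sebaceous cells (filled) and in all other kept cells (open), coloured by KO mouse. The sebaceous list stands at 16985 and 12558 CPM in the chosen cells, partly from genes that chose them, and the melanocyte list is higher in the sebaceous cells of KO mouse 2 (158.5 CPM) than in those of KO mouse 1 (8.89 CPM).

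Melanocyte transcripts differed between the mice. Pmel and Dct stood at 3.95 and 3.46 CPM in the sebaceous cells of KO mouse 1, and at 61.3 and 65.6 CPM in those of KO mouse 2. In KO mouse 2, 3 cells held 307 of the 321 Pmel and Dct UMIs, and 1 of these 3 was a called doublet. The melanocyte genes Mlana, Tyr and Kit were called higher than in upper follicle keratinocytes. Without those 3 cells none of the 3 was called. Mlana went from 3.28 to 0.31 on the log2 scale (adjusted p = 0.776 without them) and Tyr from 4.78 to 0.95 (adjusted p = 0.656), while the direction turned for Kit, from 2.88 to -1.12 (adjusted p = 0.564). The call of Mc1r among the receptors was also lost and its direction turned, from 2.06 to -0.36 (adjusted p = 0.778). The count of pathway genes called higher than in upper follicle keratinocytes was 126 with and without them.

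Besides Pmel and Dct, the genes that differed most between the mice within the sebaceous cells were Asprv1, a protease of the upper epidermis (178 and 25.7 CPM), Mt2, a metallothionein (10.9 and 83.8 CPM), and Vim, vimentin (7.90 and 56.9 CPM). The latter was not called against upper follicle keratinocytes (0.40 ± 0.63). Its log2 difference went opposite ways in the mice, at -1.38 in KO mouse 1 and 1.39 in KO mouse 2 (10 CPM added). Without the 3 pigment-rich cells Vim was lower (-2.14, adjusted p = 0.0174, the lowest over the alternatives, with 0.838 the highest). With 1 library per mouse, a difference between mice cannot be told apart from one between libraries.

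The sebaceous cells were not uniform in Scd1, and part of the lipid genes followed its order. Within each mouse they were split into 3 groups of near equal size by Scd1 UMIs per 10000, with 24, 23 and 23 cells in KO mouse 1 and 31, 31 and 30 in KO mouse 2. Scd1 chose both the cells and the groups, so what follows is a description with no test. Msmo1 went from 279.8 over 1119 to 3414 CPM from the low to the high group in KO mouse 1, and from 144 over 645 to 2763 in KO mouse 2. Elovl6 went from 438 over 1650.0 to 5046 CPM and from 287 over 1255 to 4771. The summed cholesterol synthesis list went from 1894 over 5512 to 15960.2 CPM and from 1256 over 3779 to 14693. Both mice thus showed the same order in each of these. Over all pathway lists, gate genes left out, 85 of the 204 genes with UMIs in both mice went up over the 3 groups in both mice, 20 went down in both, and 99 did neither. Cholesterol synthesis had 18 of 20 going up, fatty acid synthesis 8 of 11 and mitochondrial oxidation 9 of 13, against 3 of 10 for uptake, 3 of 9 for droplets and 4 of 13 for sterol sensing. The same share over all genes was not counted, so these counts stand without a background. The summed uptake list, with Fabp5 its most abundant gene, still went from 7082 over 15670.5 to 27268 CPM and from 4733 over 14891 to 27677. The droplet sum went from 603 over 912 to 1998 CPM and from 518 over 788 to 1737. The sterol sensing sum was lowest in the high group of both mice.

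Some genes were largely held by the high group. Fa2h stood at 19.7, 211 and 2351 CPM in the low, middle and high groups of KO mouse 1 and at 9.12, 125 and 2029 in KO mouse 2. Awat1 stood at 23.3, 62.8 and 624 CPM, and at 10.3, 42.1 and 366. Cyp17a1 and Sbsn reached 1117 and 3517 CPM in the high group of KO mouse 1 from 118 and 285 in the low group, and 609 and 2522 CPM from 42.2 and 259 in KO mouse 2. Retn stood at 3.59, 5.71 and 263 CPM, and at 2.28, 0 and 119.

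Other genes went down or showed no single direction. Krt15 went from 1053 to 78.6 CPM from the low to the high group in KO mouse 1 and from 1348 to 271 in KO mouse 2. Krt17 went from 1925 to 212 CPM and from 1619 to 157 CPM. Pparg stayed between 116 and 135 CPM in KO mouse 1 and between 79.8 and 107 CPM in KO mouse 2. Krt14 was lowest in the middle group of both mice, and Apoe lowest in the high group (8913 and 7726 CPM). The proliferation list stood at 527, 308 and 155 CPM in KO mouse 1 and at 575, 894 and 176 in KO mouse 2, so only the high group was lowest in both. Ribosomal protein transcripts made up 24.2% of UMIs in the low and 16.3% in the high group of KO mouse 1, and 26.8% and 18.8% in KO mouse 2, and their part in the other values was not tested. Mitochondrial transcripts made up 5.18% and 6.04%, and 5.07% and 6.16%. Median depth went from 16862.5 over 20446 to 32843 UMIs in KO mouse 1, and was 27848, 18610 and 25711 in KO mouse 2. The part of depth in these values was not tested.

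**Figure D5:**
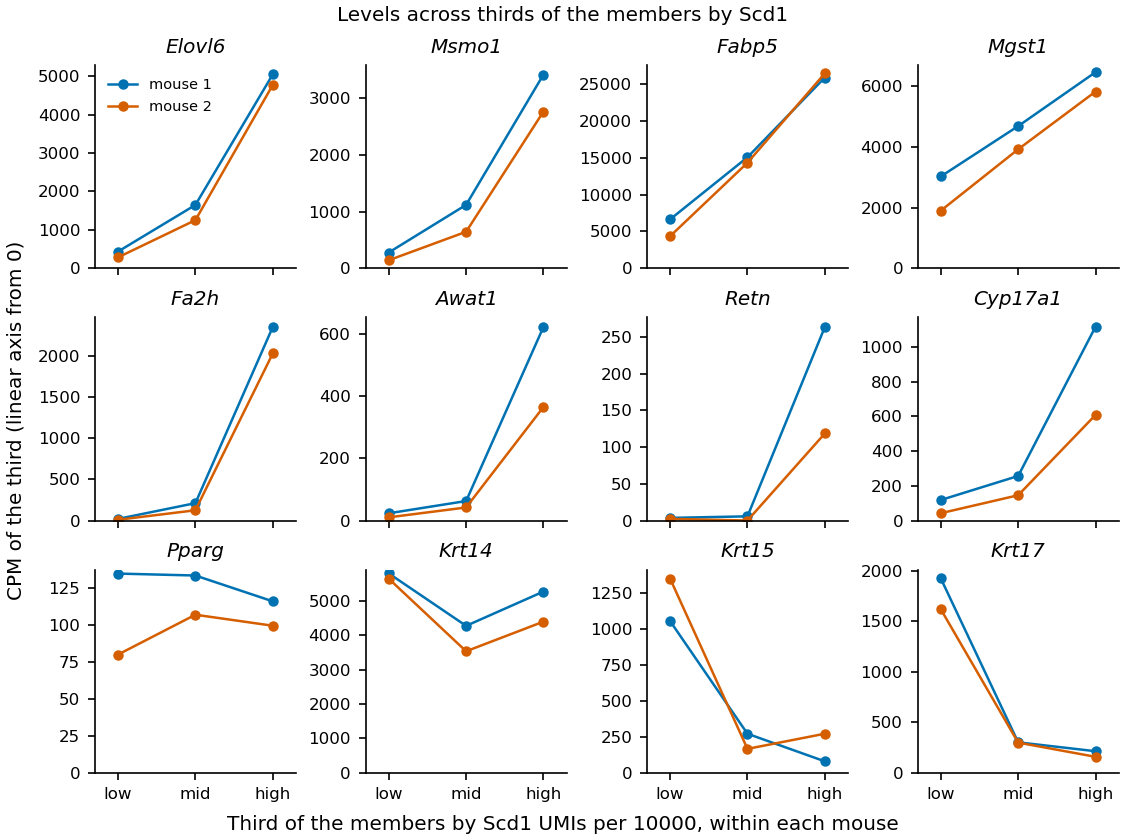
CPM of 12 genes in the low, middle and high group of sebaceous cells by Scd1 UMIs per 10000 within each KO mouse (linear axes from 0, 1 line per mouse). Elovl6, Msmo1, Fabp5, Mgst1, Fa2h, Awat1 and Cyp17a1 are highest in the high group, Retn is almost limited to it (263 and 119 CPM), Pparg shows no common trend, Krt14 is lowest in the middle group of both mice, and Krt15 and Krt17 are highest in the low group.

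Across the 162 cells, Spearman's rho with Scd1, both per 10000 UMIs, was 0.88 for Msmo1, 0.87 for Elovl3, 0.84 for Elovl6 and 0.82 for Fabp5. It was -0.55 for Krt15, -0.48 for Krt5 and -0.73 for the ribosomal protein gene Rpl13. Values within each mouse were close, with 0.90 and 0.86 for Msmo1 and -0.50 and -0.57 for Krt15. The points share 2 libraries and a total per cell, and rho between Scd1 per 10000 UMIs and depth was 0.16. Ordered instead by Krt5, Krt14 and Krt15 together, the cells of the low keratin group had a higher summed level of the markers Mgst1, Scd3, Awat2, Plin2, Fasn and Elovl6 than those of the high keratin group, by 0.43 and 0.71 on the log2 scale (mean 0.57 ± 0.19, SD, n = 2 mice). The sum was carried by its abundant members, and the markers did not agree in direction. From the low to the high keratin group, Mgst1 went from 6073 to 4113 CPM in KO mouse 1 and from 4722 to 2970.0 CPM in KO mouse 2, and Elovl6 and Fasn were also lower in the high group of both mice. Scd3 went the other way, from 16.2 to 171.5 CPM and from 41.7 to 121 CPM, as did Awat2 (79.4 to 185 and 56.0 to 127 CPM) and Plin2 (610.0 to 974 and 583 to 690.4 CPM). Scd1 went from 3449 to 5588 CPM in KO mouse 1 and from 3372 to 3178 CPM in KO mouse 2. The keratins and the markers share a total per cell.

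Transcripts of cycling cells were compared at equal depth. After each cell was thinned to 3000 UMIs, a UMI of Mki67 or Top2a was found in 8 of 70 sebaceous cells of KO mouse 1 (11.4%, with an exact 95% interval from 5.07 to 21.3) and in 12 of 90 of KO mouse 2 (13.3%, 7.08 to 22.1), 2 shallower cells being left out. Upper follicle keratinocytes showed 23.1% (19.6 to 26.9) and 26.7% (23.3 to 30.4), and melanocytes 29.8% and 28.4%. These intervals cover counting error only, since the cells of 1 mouse share a library, and the shares were not tested against each other. With cells thinned to 5000 UMIs the shares were 20% (11.4 to 31.3) and 21.3% (13.4 to 31.3) in sebaceous and 30.8% (26.9 to 34.9) and 34.2% (30.5 to 38.1) in upper follicle cells. Without thinning the shares were 45.7% and 53.3% in sebaceous and 44.4% and 49.0% in upper follicle cells, at the unequal depths given above. Of 10 proliferation genes tested, 9 were lower than in upper follicle keratinocytes, among them Cdk1 (-1.36 ± 0.20, adjusted p = 0.000372) and Rrm2 (-1.44 ± 0.27, adjusted p = 0.00158). The call of Pcna, a clamp of DNA replication and another of the 9 (-0.39 ± 0.14, adjusted p = 0.0406), was lost with DESeq2 (-0.39, adjusted p = 0.105) and at an Scd1 minimum of 20 UMIs (-0.31, adjusted p = 0.117), with 0.0105 the lowest over the alternatives. Tyms, thymidylate synthase, was the exception, at 103 and 92.5 CPM against 40.1 and 58.5 (1.23 ± 0.18, adjusted p = 0.000369). Basal keratinocytes had been chosen without Mki67 or Top2a and give no comparison for this list.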

How the data were processed

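Single-cell RNA sequencing libraries (10x Chromium 3′; the labels name chemistry version 1 and the methods of the study version 3.1) of the epidermis of 2 Chrm3 KO mice were used. Per the submitters' notes and methods, the authors ran Cell Ranger 3.0.2 against mm10. The deposited values are raw UMI counts for every gene in every barcode. The members and the gene lists were chosen with earlier results of these data known. Sums of UMI counts per mouse and class (8 sums, 4 residual degrees of freedom) were fitted in edgeR 4.0.16 under R 4.3.3 (TMM, filterByExpr, quasi-likelihood test, Benjamini-Hochberg adjustment, biological coefficient of variation 0.110). Genes of the gates stayed out of the calls. Genes were named by these rules: the 7 gate genes, the 12 genes with at least 50 CPM and the largest ratio to all other kept cells (10 CPM added, lower of 2 mice), up to 4 most abundant genes per pathway list and list genes called with a log2 fold change of at least 3 either way, Chrm3, and the 5 genes that differed most between mice. Other genes were named after their values were seen. The sums of 1 mouse come from the same animal and are paired by it. Deviations of the sums from their class means correlated with r from 0.0126 to 0.180 (6 pairs of classes), and the block with mouse was an alternative, as were DESeq2 1.42.0, its size factors and no filter. In data simulated for sebaceous against upper follicle sums, 83.9% of genes changed by 2 on the log2 scale were recovered among 11959 genes, and 83.3% against basal sums. The simulated sums had 1 mean per gene in all classes, apart from 192 changed genes, and were not paired by mouse. The data differ in both, so this recovery need not hold for them. Doublets were scored with Scrublet (scanpy 1.11.5, expected rate 8%, set after the default called almost none in KO mouse 1) and kept. Shares have exact binomial and UMI counts exact Poisson intervals at 95%, and fold changes are given ± SE. Gene positions are from GENCODE M21 on mm10. The p-values measure the spread between 2 animals. Plots used matplotlib 3.10.9 (Python 3.11.15). Some genes are not reported here.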

Additional observations from a re-analysis of the deposited data

Results flagged for a closer look

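Sebaceous cells by the same rule also occurred in data that no comparison used. Among the 7195 barcodes that the quality filter removed, 18 passed the rule (10 in KO mouse 1 and 8 in KO mouse 2). Of these, 14 were removed for 10% or more mitochondrial UMIs and 4 for more than 7700 genes. Their median was 24 Scd1 UMIs and 10079.5 UMIs in all. They entered no level or test given here.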

How the results depend on the processing

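The share of sebaceous cells followed the minimum of Scd1, with a mean of 1.03% at 5 UMIs, 0.612% at 20 UMIs and 0.642% at 10 UMIs per 10000, and ran from 0.774% to 0.920% with 1 mouse left out. The share with a cycling UMI was 49.5% without thinning and 20.7% at 5000 UMIs, against 12.4% at 3000, and 11.4% to 13.3% with 1 mouse left out. The keratin split ran from 0.43 to 0.71 with 1 mouse left out. Thinning every cell to 5000 UMIs, an alternative chosen after seeing the data, gave 2808 calls against upper follicle and 3606 against basal keratinocytes, with fewer genes tested (11054). With the replicate block there were 5769 and 6323 calls, with DESeq2 4604 and 5250, and with no filter 5853 and 6416. The block changed no call that the text gives for the 110 genes tested under the alternatives. No test with 1 mouse left out was possible, since 4 sums for 4 classes leave no residual degrees of freedom. Over 110 genes the alternatives gave 17 weaker and 24 stronger calls. Among values called in the main fit or under the alternative, 4 changed sign. These were Rxra (-0.042 against upper follicle keratinocytes, thinned), Gata3 (-0.00628 in KO mouse 2 alone), and Vim (-2.14 and -2.00 without the 3 pigment-rich cells). For Gata3 the TMM factors were also left out, and with them the value was 0.20. Both that alternative and the one without the 3 cells were chosen after seeing the data. Values called in neither were not counted, and some of them also changed sign. Vim was -1.38 and -0.43 in KO mouse 1 alone, against upper follicle and basal keratinocytes. Asprv1 against basal keratinocytes was 2.42 in KO mouse 1 alone and -1.62 in KO mouse 2 alone. The cause was not tested. Results rest on 2 mice of 1 genotype and on 162 cells, and 3 counts, or 1.48 and 1.19 CPM, limit what can be measured in them.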
